A study of Mus musculus with 12 samples.

Results

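The genes that make, store, take up and break down serotonin in the gut were examined in mouse gut epithelial RNA, together with Tac1, whose peptides are kept in the same hormone cells. The 7 genes were chosen by name for their roles (Tph1, Ddc, Slc18a1, Slc6a4, Maoa, Maob and Tac1) out of the 14244 gene rows of the series, and all 7 were present and abundant enough to be tested. Epithelial cells were detached from intestinal sections of C57BL/6 male littermates, all 8 weeks old, and sequenced with 1 poly(A) library per mouse. There were 5 WT mice and 7 Chd8L+/- mice, which are heterozygous in every tissue for a deletion of Chd8 exons that removes the large isoform of this chromatin remodeller. The segment of the gut is not given in the sources used here.

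Most of the serotonin of the body is made in the gut by enterochromaffin cells, scattered hormone cells of the epithelium. Tph1 hydroxylates tryptophan, which is the rate-limiting step, and Ddc removes the carboxyl group to give serotonin. Slc18a1 (VMAT1) loads the product into granules that also hold chromogranin A, the product of Chga. Released serotonin is cleared mainly by neighbouring enterocytes, which take it up through Slc6a4 (SERT) and oxidise it with the monoamine oxidases Maoa and Maob. Tac1 encodes substance P and neurokinin A, which enterochromaffin cells and enteric neurons both make.

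Values are normalized counts, that is, reads counted on a gene divided by a size factor of the library. Totals ran from 15691662 to 20761315 reads per library. Differences between genotypes were tested by limma, after adding 1 to each normalized count and taking log2. This covered the 12808 genes whose mean reached 10, and the Benjamini-Hochberg adjustment covers all of them. Fold changes given without the name of another tool are of log2(normalized count + 1), so those of genes with few reads are understated. Errors given as ± are the SD over the mice of a group (n = 5 for WT, n = 7 for Chd8L+/-), and in each pair of values WT stands first. The targeted gene Chd8 ran from 823 to 1050 normalized counts in WT libraries and from 1084 to 1483 in libraries labelled Chd8L+/-. All 7 of these lay above all 5 WT libraries, so the total over the whole gene was higher and not lower than in WT. A whole-gene count cannot tell the deleted exons from the others and so does not check the labels. The study measured the deleted exons apart by real-time PCR, which was not analysed here, and every direction given below rests on the labels. WT replicate 2 stood apart from the other WT libraries on the first principal component (39.7% of variance), at 41.0 where the other WT libraries ran from -67.5 to -26.2 and those labelled Chd8L+/- from 0.26 to 42.7. Other cell types also differed between the groups. All 10 tuft cell markers were lower in libraries labelled Chd8L+/- (median log2 fold change -1.87), all 8 proliferation markers were higher (1.01), 11 of 12 enterocyte markers were lower (-0.42), and all 7 tested stromal and vessel markers were higher (2.03), although 0 genes of these lists passed an adjusted p of 0.05 in limma. That limma fit called 0.0234% of all genes tested. Of the 10 tuft cell markers, 9 passed the threshold with DESeq2, with the letter opening the library names as a block in limma, and in limma without WT replicate 2. Of the 8 proliferation markers, 0, 2 and 7 did so in these fits. The same fits called 6.44%, 3.52% and 27.6% of all genes, in this order.

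Serotonin genes as a group did not move in 1 direction. Of the 7 genes, 4 had a higher and 3 a lower mean log2 value in libraries labelled Chd8L+/-, with a median log2 fold change of 0.07 against 0.01 over all genes tested. At the threshold (adjusted p of 0.05) limma called 0 of the 7, where it called 0.0234% of all genes tested. At an unadjusted p of 0.05 or less, 2 of the 7 were counted, Slc18a1 (lower) and Tac1 (higher), against 24.3% of all genes. DESeq2 on the reads recovered from the same values called 1 of the 7, Slc18a1, against 6.44% of genes, and edgeR called 0, against 0.039% of genes. In bulk samples, fewer cells of a type and less RNA per cell cannot be told apart.

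**Figure D1:**
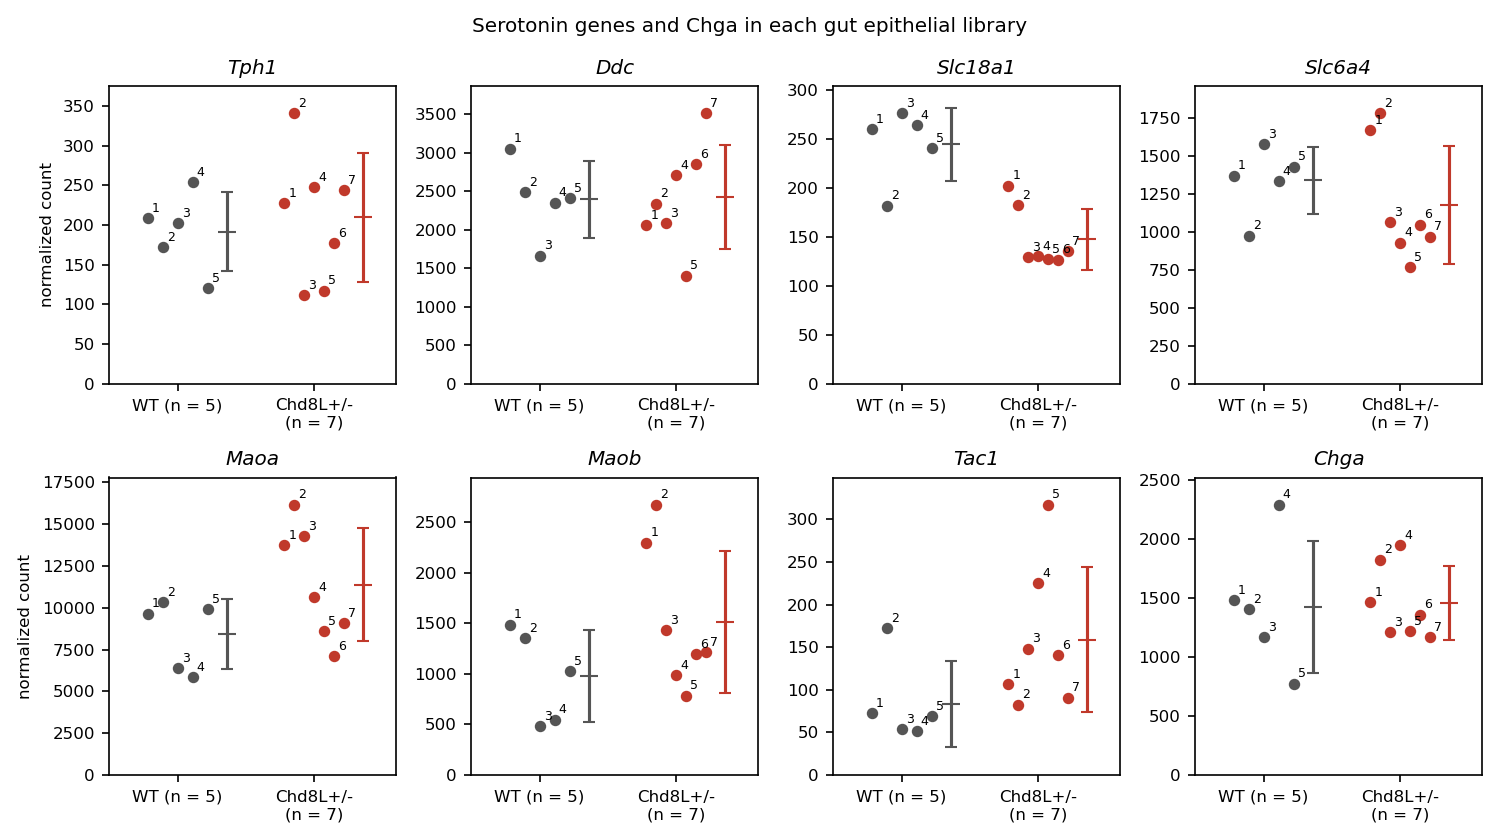
Normalized count of the 7 serotonin genes and of Chga (vertical axes, each from 0) in the 5 WT libraries (grey) and the 7 libraries labelled Chd8L+/- (red). Points are libraries with their replicate number, and bars are mean ± SD. For Slc18a1, 5 of 7 libraries labelled Chd8L+/- lie below every WT library, while for Tph1 and Ddc the groups cover each other.

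Per kilobase of exon, the oxidase Maoa was the most abundant of the 7 genes, and Tac1, the granule loader Slc18a1 and the hydroxylase Tph1 were the least. Over the 12 libraries Maoa had a mean of 2437 normalized counts per kilobase, Ddc 541, Maob 463, Slc6a4 274, Tac1 37.6, Slc18a1 34.8 and Tph1 32.7. Maoa exceeded Ddc in 12 of 12 libraries and Slc6a4 exceeded Tac1 in 12 of 12. The neighbours Ddc and Maob kept that order in 9 of 12 libraries and Maob and Slc6a4 in 10 of 12. Tac1, Slc18a1 and Tph1 were not separated, since Tac1 exceeded Slc18a1 in 6 of 12 libraries and Slc18a1 exceeded Tph1 in 8 of 12. Their order was not the same in both groups. In WT the means per kilobase were 24.7 for Tac1, 45.3 for Slc18a1 and 31.1 for Tph1, and in libraries labelled Chd8L+/- they were 46.8, 27.3 and 33.9. Lengths are of the union of exons in GENCODE M21.

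Tph1, the enzyme of the first step, was measured at 209, 172, 203, 254 and 120 normalized counts in WT replicates 1 to 5. In the 7 libraries labelled Chd8L+/- its lowest, median and highest normalized counts were 111, 227 and 341. The groups overlapped over nearly their whole range, with 1 library labelled Chd8L+/- above every WT library and 2 below every one. The log2 fold change was 0.07 (95% interval -0.53 to 0.67, limma adjusted p = 0.896), and it turned to -0.04 with quantile normalization and to -0.16 when the first letter of the library name was a block. Tph1 lies on chromosome 7 (46644641 to 46672537, minus strand, GRCm38). The brain form Tph2 has no row in the table. The coding sequences of the 2 enzymes share no run of bases longer than 15, against reads of 75 bases.

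Ddc (chromosome 11, 11814101 to 11898144, minus strand), which also acts in enterocytes and on other amino acids, had 3057, 2489, 1663, 2353 and 2415 normalized counts in WT replicates 1 to 5. Its lowest, median and highest values in libraries labelled Chd8L+/- were 1404, 2342 and 3519. Both the highest and the lowest of all 12 libraries were labelled Chd8L+/-. The log2 fold change was -0.01 (95% interval -0.45 to 0.44, limma adjusted p = 0.987), and it was 0.13 with quantile normalization, 0.03 with edgeR and 0.02 with DESeq2. As a fold, the interval runs from 0.733 to 1.35 in Ddc and from 0.695 to 1.59 in Tph1.

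The hydroxylase needs tetrahydrobiopterin, and 6 of 8 genes of that cofactor were lower in libraries labelled Chd8L+/- (median log2 fold change -0.17), with 0 past the threshold in limma. The largest difference was that of Gch1, which catalyses the first step of cofactor synthesis, at 860 ± 302 in WT against 433 ± 131 normalized counts (log2 fold change -0.95, limma adjusted p = 0.121, 0.0200 from DESeq2, and 2.29e-05 to 0.343 over all alternatives). Its feedback regulator Gchfr, named after its values were seen, had 702 ± 324 in WT against 350 ± 111 normalized counts (log2 fold change -0.92, limma adjusted p = 0.121, 0.0217 from DESeq2). Qdpr, which recycles the cofactor and is the most abundant gene of the list, differed by 0.06 on the log2 scale (limma adjusted p = 0.786). Tuft cell markers moved in the same direction as Gch1, and their part in its difference was not tested.

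Slc18a1, the granule loader (chromosome 8, 69037711 to 69089235, minus strand), had the smallest p of the serotonin genes and ranked 35 by p among all genes tested. Its normalized counts in WT replicates 1 to 5 were 260, 182, 276, 264 and 241. In the libraries labelled Chd8L+/- the lowest, median and highest were 127, 130 and 202. All 7 lay below the WT median of 260 and 5 of them, replicates 3 to 7, lay between 127 and 135, below every WT library. WT replicate 2 lay among the Chd8L+/- values, next to replicate 2 of that group at 182. The mean was 244 ± 37.3 in WT against 147 ± 31.3 normalized counts. On the log2 scale this is a difference of -0.74 (standard error 0.16), or 0.601-fold (95% interval 0.470 to 0.767). The unadjusted p was 0.000529 and the adjusted p 0.121 from limma, and a two-sided exact permutation test over samples gave an unadjusted p of 0.00505, where the smallest possible is 0.00126. At 121 to 292 reads per library, counting error was at most 9.09% of the value, less than the spread between mice (15.3% in WT and 21.2% in the other group).

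Whether Slc18a1 passed the threshold turned on single libraries and on the tool. DESeq2 gave an adjusted p of 0.00589 with all libraries. Without WT replicate 3 DESeq2 gave 0.0768, and without WT replicate 4 it gave 0.0597, so the call was lost each time, while it held without each of the other 10 libraries. With limma, leaving out WT replicate 2 gave an adjusted p of 0.00438, in a fit that called 27.6% of all genes, and the library letter as a block gave 0.0434, with 3.52% of genes called. Over all alternatives the adjusted p ran from 7.25e-05 to 0.343 and the log2 fold change from -0.84 to -0.67. Within each letter that holds both genotypes, Slc18a1 was lower in the libraries labelled Chd8L+/-, by 0.74 on the log2 scale for A (2 against 2 libraries), 0.99 for B (2 WT, 1 Chd8L+/-) and 0.72 for C (1 WT, 3 Chd8L+/-). What the letters stand for is not given in the sources used here, and the letter D holds 1 library only.

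The other vesicular transporter Slc18a2 (VMAT2), used by histamine cells and neurons, was much scarcer, at 57.1 ± 14.6 in WT against 47.7 ± 8.50 normalized counts (log2 fold change -0.24, limma adjusted p = 0.477). The coding sequences of Slc18a1 and Slc18a2 share no run longer than 15 bases. Slc18a1 overlaps Atp6v1b2 and Gm15716 on the opposite strand in the annotation, but shares 0 exonic bases with them.

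Slc6a4, the transporter by which enterocytes clear serotonin (chromosome 11, 76998603 to 77032340, plus strand), had 1369, 973, 1577, 1334 and 1428 normalized counts in WT replicates 1 to 5. In libraries labelled Chd8L+/- the lowest, median and highest were 765, 1046 and 1780. Those libraries fell on both sides of WT, with replicates 1 and 2 above every WT library and 3 of the others below every one. The log2 fold change was -0.23 (95% interval -0.67 to 0.21, limma adjusted p = 0.501), negative in all 35 alternatives, and it shrank to -0.07 without Chd8L+/- replicates 4 and 5. Of the 6 tested transporters able to carry serotonin, 5 were higher in libraries labelled Chd8L+/- and 1, Slc6a4 itself, was lower (median log2 fold change 0.24). Slc22a3 (OCT3), a low-affinity carrier, had 7.47 ± 5.40 in WT against 19.2 ± 9.84 normalized counts. Its WT mean is below the minimum mean of 10, so it was tested only through the group where it was higher, and its difference is given as a description. It is among the 5 higher transporters and in their median, so that count and median are also given only as a description.

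Maoa and Maob, the mitochondrial enzymes that oxidise serotonin and other amines, lie side by side on chromosome X in opposite orientation (16619698 to 16687818, plus strand, and 16709282 to 16817366, minus strand). Since they are related in sequence, the longest run that their coding sequences share is shown here to set against the length of a read. It has 35 bases, from base 1165 of the Maoa and base 1138 of the Maob coding sequence, so a 75-base read within the coding sequence has bases that differ between them.

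Shared by Maoa and Maob: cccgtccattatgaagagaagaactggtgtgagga

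Maoa had 9650, 10346, 6410, 5868 and 9913 normalized counts in WT replicates 1 to 5, and a lowest, median and highest of 7109, 10653 and 16180 in libraries labelled Chd8L+/-. In that group 4 of 7 lay above every WT library and 0 below every one. The log2 fold change was 0.42 (95% interval -0.08 to 0.91, limma adjusted p = 0.278). Maob had 1486, 1354, 485, 548 and 1026 normalized counts in WT, and 785, 1212 and 2675 as lowest, median and highest in the other group. The 2 libraries above every WT library, replicates 1 and 2, were also among the 3 highest for Maoa, and WT replicates 3 and 4 were lowest for both genes. The log2 fold change of Maob was 0.65 (95% interval -0.09 to 1.39, limma adjusted p = 0.259). Both oxidases were higher in libraries labelled Chd8L+/- in all 35 alternatives, and in 0 of them did either pass the threshold. Within letters, Maob differed by 0.07 on the log2 scale for B and by -0.25 for A, while for C its mean log2 value was 8.92 in the WT library and 10.93 in the 3 others.

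The ratio of the 2 oxidases was compared within libraries. The log2 of Maoa over Maob was 3.21 ± 0.40 in WT and 2.98 ± 0.41 in libraries labelled Chd8L+/-, a difference of -0.23 (two-sided exact permutation test, p = 0.332, adjusted over 3 ratios 0.498). Among the 7 genes of serotonin oxidation tested, 4 were higher and 3 lower in libraries labelled Chd8L+/- (median log2 fold change 0.42, 0 past the threshold in limma). Maoa and Maob are among the 4 higher, and the median is the value of Maoa itself. The aldehyde dehydrogenase Aldh1b1 was higher, at 5997 ± 2388 in WT against 8947 ± 1853 normalized counts (log2 fold change 0.62, limma adjusted p = 0.148). Aldh2, named like Aldh1b1 after its values were seen, was lower, at 6009 ± 1442 in WT against 3994 ± 557 normalized counts (log2 fold change -0.56, limma adjusted p = 0.121, 0.0216 from DESeq2). Akr1a1, an aldehyde reductase and the most abundant gene of the list, had a log2 fold change of -0.48 (limma adjusted p = 0.128, 0.0268 from DESeq2), and Aldh1a1, with the largest difference, had 0.71 (limma adjusted p = 0.351). Of the conjugating enzymes, Aanat and Asmt of the melatonin path have no row, and the sulfotransferase Sult1a1 (log2 fold change 0.41, limma adjusted p = 0.815) and the glucuronosyltransferase Ugt1a6b (0.79, adjusted p = 0.335) did not pass the threshold.

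**Figure D2:**
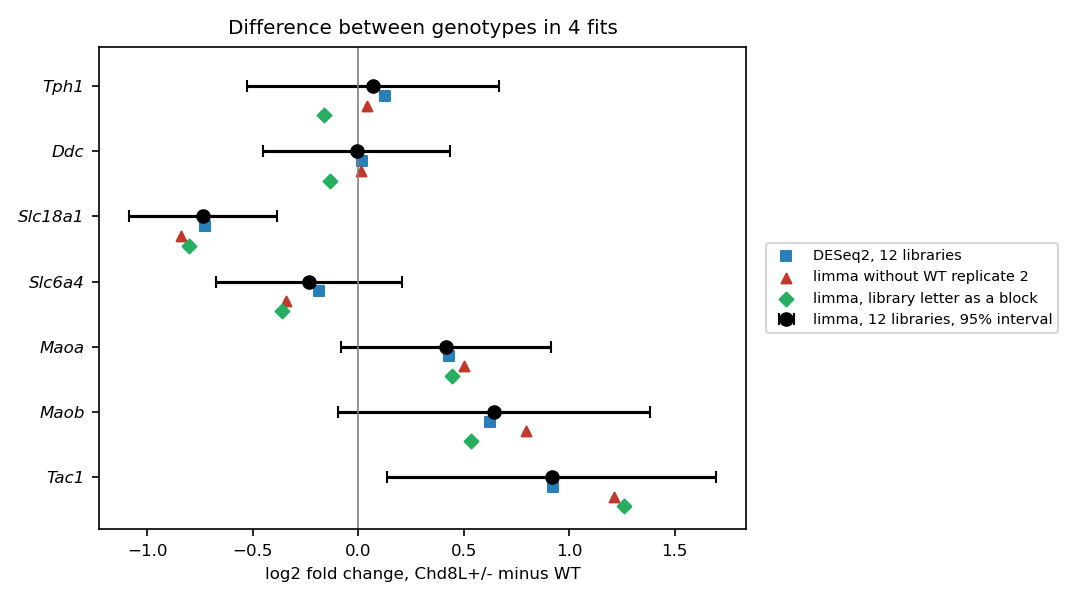
Log2 fold change (horizontal axis, Chd8L+/- minus WT) of the 7 serotonin genes in 4 fits. Black points with bars are limma over 12 libraries with the 95% interval, squares DESeq2, triangles limma without WT replicate 2 and diamonds limma with the library letter as a block. The values of Slc18a1 stay between -0.84 and -0.73 and those of Tac1 from 0.92 upward, while those of Tph1 and Ddc lie on both sides of 0.

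Tac1 (chromosome 6, 7554879 to 7565834, plus strand) is spliced into transcripts that carry one or both of its peptides, and the coding stretches of these peptides are shown because the count covers the whole gene and cannot tell which peptide the RNA encodes. Capitals mark the 15 bases of the 5 codons with which each tachykinin ends. The substance P stretch (chr6:7556732-7556764, plus strand, GRCm38) lies in a coding exon of all 3 complete coding transcripts of GENCODE M21. The neurokinin A stretch, which opens with the codon before the peptide, runs from the first to the last base of chr6:7557743-7559130. An intron within these bounds splits the stretch, which is in 2 of the 3 transcripts.

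Substance P: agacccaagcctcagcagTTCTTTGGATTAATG
Neurokinin A: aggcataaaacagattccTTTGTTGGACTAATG

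Tac1 had 72.9, 172, 53.4, 51.6 and 69.0 normalized counts in WT replicates 1 to 5. In libraries labelled Chd8L+/- the lowest, median and highest were 82.6, 141 and 317. All 7 lay above the WT median of 69.0, and all 7 also above each WT library other than replicate 2, which exceeded 5 of them. The mean was 83.9 ± 50.4 in WT against 159 ± 84.7 normalized counts. On the log2 scale this is a difference of 0.92 (standard error 0.36, 95% interval 0.13 to 1.70), with an unadjusted p of 0.0248 and an adjusted p of 0.157 from limma. The two-sided exact permutation test gave an unadjusted p of 0.0518. With 52 to 303 reads per library, counting error reached 13.9% of the value. Without WT replicate 2, limma gave a log2 fold change of 1.21 and an adjusted p of 0.0172, and DESeq2 an adjusted p of 0.00128, in a fit that called 28.9% of all genes. With all libraries DESeq2 gave 0.117, and the range over all alternatives was 0.00128 to 0.376.

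Tac1 was compared with the RNA of stroma and of enterocytes in each library. Chd8L+/- replicates 5 and 4 had the highest Tac1 (317 and 225 normalized counts), and the summed normalized counts of 9 stromal and vessel markers were 2136 and 860 there. Over the groups, this sum ran from 55.1 to 444 in WT, highest in replicate 2, and from 86.5 to 2136 in libraries labelled Chd8L+/-. Col3a1, a collagen of fibroblasts, was at 0 to 64.9 normalized counts in WT and 18.2 to 308 in the other group. Over 12 libraries, log2 Tac1 and the log2 stromal sum had a Pearson r of 0.82 (permutation p = 0.00110, adjusted over 42 relations 0.0220) and a Spearman rho of 0.76 (permutation p = 0.00596, adjusted 0.0501). The r was 0.57 without the 2 libraries farthest from the median of Tac1 and 0.75 within the 7 libraries labelled Chd8L+/-. Log2 Tac1 went against the log2 sum of the enterocyte markers about as closely (Pearson r = -0.80, permutation p = 0.00233, adjusted 0.0245; Spearman rho = -0.84, permutation p = 0.00100, adjusted 0.0140), with an r of -0.86 without the 2 farthest libraries and -0.60 within the libraries labelled Chd8L+/-. The WT libraries are too few for values of their own. Without Chd8L+/- replicates 4 and 5, the log2 fold change of Tac1 was 0.56 (limma adjusted p = 0.358). The part of stromal or enterocyte RNA in the difference was not tested. Of 12 enteric neuron markers, 7 have no row in the table, among them Elavl3, Elavl4, Uchl1 and Nos1, Tubb3, Prph and Vip were below the level tested, and the other 2 were lower in libraries labelled Chd8L+/-. One of these, Chat, which tuft cells also express, had a log2 fold change of -1.78 (limma adjusted p = 0.134, 0.0301 from DESeq2).

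The tachykinin receptors Tacr1, Tacr2 and Tacr3 have no row. The most abundant gene of the tachykinin list, the peptidase Ace, which can cleave substance P, differed by -0.44 on the log2 scale (limma adjusted p = 0.421). Within a library, the log2 of Tac1 over Tph1 was -1.30 ± 0.91 in WT and -0.45 ± 1.17 in libraries labelled Chd8L+/-, a difference of 0.85 (two-sided exact permutation test, p = 0.207, adjusted over 3 ratios 0.498).

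Chga, the granule protein of hormone cells, gives a level against which the synthesis enzyme can be set. Chga had 1424 ± 558 in WT against 1457 ± 312 normalized counts (log2 fold change 0.09, limma adjusted p = 0.820). The log2 of Tph1 over Chga was -2.84 ± 0.26 in WT and -2.87 ± 0.45 in libraries labelled Chd8L+/-, a difference of -0.02 (two-sided exact permutation test, p = 0.913, also after adjustment over 3 ratios). Chgb, a second granule protein, had a log2 fold change of 0.09 (limma adjusted p = 0.831), and Fev (-0.04, adjusted p = 0.960) and Lmx1a (-0.22, adjusted p = 0.719), transcription factors of serotonin cells, had group means of 27.1 to 32.0 normalized counts.

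Across the 12 libraries the genes did not vary together as 1 programme. These relations were chosen for print after their values were seen, out of 42 computed, and the libraries share a normalization. The permutations ran over all 12 libraries regardless of genotype, so differences between the groups enter each p. Within the libraries labelled Chd8L+/- alone, Maob had a Pearson r of 0.99 with Slc6a4 and 0.88 with Slc18a1, and Maoa 0.72 and 0.67. Over all 12 libraries these r were 0.26, -0.24, 0.19 and -0.28, in this order. Within that group Ddc had an r from -0.20 to 0.11 with these genes, and Tac1 from -0.81 to -0.43. The values within the group were not tested. Tph1 went with Chga (Pearson r = 0.69, permutation p = 0.0108, adjusted 0.0453; Spearman rho = 0.67, permutation p = 0.0206, adjusted 0.103), with an r of 0.77 without the 2 libraries farthest from the median of Tph1 and 0.68 within the libraries labelled Chd8L+/-. Slc18a1 did not show such a relation to Chga (Pearson r = 0.02, permutation p = 0.957; Spearman rho = 0.08, permutation p = 0.816). Slc18a1 went instead with the uptake transporter Slc6a4 (Pearson r = 0.74, permutation p = 0.00869, adjusted 0.0436; Spearman rho = 0.66, permutation p = 0.0220, adjusted 0.103), with an r of 0.72 without the 2 farthest libraries and 0.92 within the libraries labelled Chd8L+/-. It also went with the summed enterocyte markers (Pearson r = 0.77, permutation p = 0.00531, adjusted 0.0319; Spearman rho = 0.88, permutation p = 0.000430, adjusted 0.0140), with an r of 0.70 without the 2 farthest libraries and 0.77 within the libraries labelled Chd8L+/-. This sum ran from 401329 to 877845 normalized counts in WT, lowest in replicate 2, and from 335283 to 763455 in the other group, and Fabp1, a fatty acid carrier of enterocytes, had a log2 fold change of -1.08 (limma adjusted p = 0.121, 0.0281 from DESeq2). Slc6a4 also went with the enterocyte sum (Pearson r = 0.73, permutation p = 0.00934, adjusted 0.0436). Against the stromal sum, Slc18a1 had an r of -0.70 (permutation p = 0.0127, adjusted 0.0485) and Slc6a4 had -0.75 (permutation p = 0.00434, adjusted 0.0304). Slc6a4 and Tac1 had -0.78 (permutation p = 0.00296, adjusted 0.0249). Adjusted p of Spearman rho for these Slc6a4 and stromal relations ran from 0.101 to 0.252. The part of enterocyte or stromal RNA in the difference of Slc18a1 was not tested.

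Maoa and Maob went together (Pearson r = 0.86, permutation p = 0.000470, adjusted 0.0197; Spearman rho = 0.77, permutation p = 0.00493, adjusted 0.0501), with an r of 0.75 without the 2 farthest libraries and 0.76 within the libraries labelled Chd8L+/-. Slc18a1 and Tac1 went in opposite directions (Pearson r = -0.82, permutation p = 0.00157, adjusted 0.0220; Spearman rho = -0.85, permutation p = 0.000970, adjusted 0.0140), with an r of -0.71 without the 2 farthest libraries and -0.61 within the libraries labelled Chd8L+/-. Whether 2 correlations differ from each other was not tested.

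**Figure D3:**
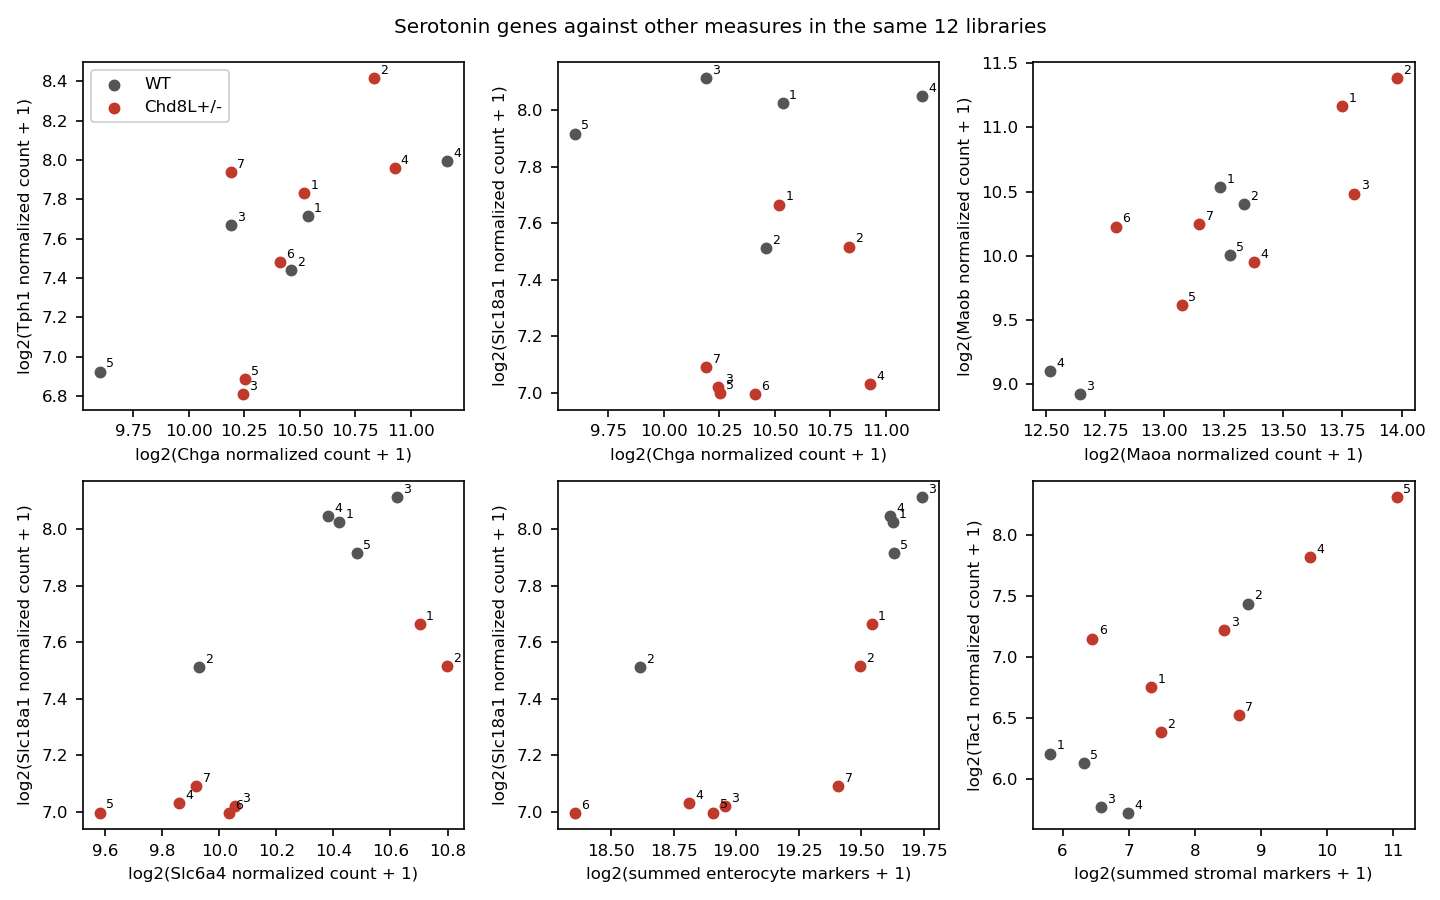
Pairs of measures in the same 12 libraries (log2 of normalized count + 1 on both axes, grey WT, red Chd8L+/-, numbers are replicates). Tph1 rises with Chga (r = 0.69) while Slc18a1 does not (r = 0.02), Maob rises with Maoa (r = 0.86), Slc18a1 with Slc6a4 (r = 0.74) and with the summed enterocyte markers (r = 0.77), and Tac1 with the summed stromal and vessel markers (r = 0.82).

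Among the 10683 genes with a mean of at least 50, those whose log2 values followed a serotonin gene most closely over the 12 libraries differed from gene to gene. Closest to Tph1 were Sardh, Cenpj and Tbc1d9b (Pearson r of 0.89, 0.89 and 0.84), and closest to Ddc were Gstt1, Gpr155 and Tbc1d31 (0.88, 0.86 and 0.85). Slc18a1 was followed by Taf12, Coq10b and Rybp (0.95, 0.94 and 0.94) and Slc6a4 by Gigyf2, Gdi2 and Arf2 (0.96, 0.96 and 0.95). Maoa was followed by Me2, Ppara and Prkca (0.96, 0.93 and 0.92), and Maob by Aqp1, Slc7a8 and Slc16a10 (0.94, 0.92 and 0.90), of which Slc7a8 and Slc16a10 are amino acid transporters. Tac1 was followed by Mum1, Cdk10 and Limk2 (0.97, 0.96 and 0.95). These are the highest of 10683 correlations per gene over 12 libraries that share depth and scaling, and are given as a description.

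Genes around the pathway were counted by role. Of 8 genes of tryptophan uptake, 5 were lower and 3 higher in libraries labelled Chd8L+/- (median log2 fold change -0.13, 0.07 with quantile normalization), and 0 passed the threshold in limma. Slc7a5, a transporter of large neutral amino acids, had a log2 fold change of 0.53 (limma adjusted p = 0.280). On the competing kynurenine path, 4 of 7 tested genes were higher and 3 lower (median 0.10, -0.05 with quantile normalization), with Kyat1 highest in level and in difference (0.34, limma adjusted p = 0.304). Of 14 serotonin receptors only Htr4, which the epithelium carries, has a row, at 29.8 ± 21.4 in WT against 34.9 ± 13.5 normalized counts (log2 fold change 0.42, limma adjusted p = 0.561).

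Of 10 peptide hormone genes of enteroendocrine cells tested, 9 had a lower mean log2 value in libraries labelled Chd8L+/- (median log2 fold change -0.53, against 0.01 over all genes). With edgeR, with DESeq2 and in limma without WT replicate 2 the count was 8, and the median stayed between -0.60 and -0.47 under the other scalings, the letter block and without WT replicate 2. In limma 0 of the 10 passed the threshold, and 3 had an unadjusted p of 0.05 or less, against 24.3% of all genes. These were Gip, Sct and Sst, of which Sct and Sst were named after their values were seen. Gip, the incretin of K cells and the most abundant of the list, had 1094 ± 333 in WT against 732 ± 215 normalized counts (log2 fold change -0.59, limma adjusted p = 0.147). Sct (secretin) had a log2 fold change of -0.67 (limma adjusted p = 0.127, 0.0348 from DESeq2) and Sst (somatostatin) -0.56 (limma adjusted p = 0.135, 0.0912 from DESeq2). Nts (neurotensin) had the largest difference, -0.74 (limma adjusted p = 0.278). The single hormone that was higher was Gcg, the source of the glucagon-like peptides (0.36, limma adjusted p = 0.398).

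Of 12 transcription factors of the lineage, 8 were higher and 4 lower (median 0.10). Foxa1, the most abundant of them, had a log2 fold change of 0.05 (limma adjusted p = 0.909). Of 13 granule and sensing genes, 8 were higher and 5 lower (median 0.09, -0.02 with quantile normalization). The exceptions in size were Ffar3, a short-chain fatty acid receptor, at 422 ± 260 in WT against 88.7 ± 70.7 normalized counts (log2 fold change -2.23, limma adjusted p = 0.121, 0.0214 from DESeq2), and Cpe, a processing enzyme named after its values were seen, at 1027 ± 625 in WT against 320 ± 94.3 normalized counts (log2 fold change -1.44, limma adjusted p = 0.121, 0.00210 from DESeq2). Tuft cell markers were also lower, with a summed normalized count of 3079 to 30143 in WT and 1715 to 12875 in the other group, and their part in these differences was not tested.

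**Figure D4:**
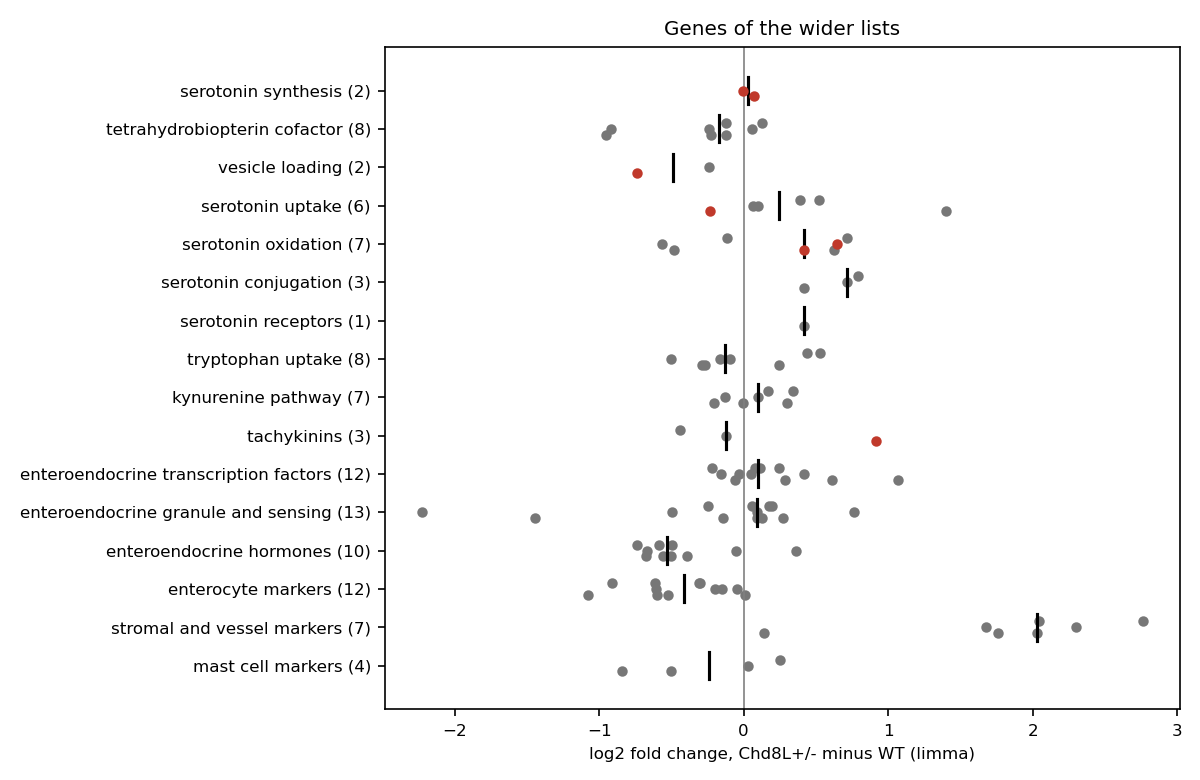
Log2 fold change (horizontal axis, limma, Chd8L+/- minus WT) of the tested genes of each list, with the number tested in brackets. Red points are the serotonin genes, grey points the other genes of the list and black bars the median. Hormone genes lie mostly below 0 (median -0.53), stromal markers above it (2.03), and serotonin synthesis at it (0.03).

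Markers of other cells that can hold serotonin were present in part. Of 12 mast cell markers, Cpa3, Tpsab1, Cma1, Ms4a2, Fcer1a and Gata2 have no row, and Mcpt4 and Tpsb2 were below the level tested. The 4 tested were Mcpt1, Mcpt2, Hdc and Kit. They split into 2 lower and 2 higher in libraries labelled Chd8L+/- (median -0.24), and all 4 were lower with edgeR and DESeq2. The sum over the list ran from 643 to 1672 normalized counts in WT and from 446 to 1154 in the other group. The most abundant of these, Kit, is also expressed by other cells (log2 fold change -0.84, limma adjusted p = 0.134). Of 5 platelet markers, Pf4, Ppbp and Gp9 have no row, and the other 2, Itga2b and Gp1bb, summed to 476 to 671 normalized counts in WT and 412 to 1313 in the other group (median log2 fold change 0.04). Of 6 intraepithelial lymphocyte markers 5 were lower (median -0.20), with sums of 4309 to 7720 normalized counts in WT and 3038 to 7851 in the other group. The libraries also differed in the segment of gut they resembled, within both genotypes. Summed markers of the distal small intestine ran from 6336 to 31117 normalized counts in WT and from 2355 to 42076 in libraries labelled Chd8L+/-, those of the colon from 1404 to 7258 and from 1112 to 22048, and those of the proximal small intestine from 20251 to 36008 and from 15389 to 45403. Their medians of log2 fold change were -0.35, 0.10 and -0.07, in this order. With DESeq2 those of the distal and colon lists were 0.07 and 0.50, with edgeR 0.10 and 0.50, and with the letter block 0.01 and 0.62. In limma without WT replicate 2 they were -0.64 and 0.07, and with quantile normalization -0.14 and 0.11. The part of the segment in the levels of serotonin genes was not tested.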

How the data were processed

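Single-end reads of 75 bases were mapped by the authors to mm10 with Tophat2. In the DESeq2 pipeline the authors then divided each gene's reads by a size factor, and deposited the resulting signal. How reads were assigned to genes (program, annotation, strand) and how rows were filtered is not given in the sources used here. The kit did not mark strand. The mice were separate animals, 1 library each, with 15691662 to 20761315 reads.

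Reads were recovered by dividing each value by what 1 read is worth in its library; 100% of the values came out whole (largest deviation 0.000147, tolerance 0.01), and DESeq2 1.42.0 and edgeR 4.0.16 were run on them as alternatives. The main test was limma 3.58.1 in R 4.3.3 (lmFit, eBayes with trend) of genotype on log2(value + 1), for the 12808 genes with a mean of at least 10, Benjamini-Hochberg adjusted, threshold 0.05. Single values were compared by two-sided exact permutation over samples, and correlations by 100000 permutations of the libraries, regardless of genotype. The serotonin genes and the gene lists were chosen with earlier results of these data known. From each wider list, the text names the gene with the highest mean and that with the largest log2 fold change, leaving out those of most marker lists, which are given by counts and sums, and some genes that this rule names are not reported here. Alternatives were pseudocounts of 0.5 and 5, testing every row, a minimum of 10 in each library, quantile normalization, both count tools, the replicate number and the library letter as blocks, an exact test of each gene, and each library left out. DESeq2 without each library in turn and limma without Chd8L+/- replicates 4 and 5 were added after the data were seen. Intervals of read counts cover counting error only. The fits were tested on simulated data. Positions and coding sequences come from GENCODE M21 (GRCm38), which is not necessarily the annotation the authors used.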

Additional observations from a re-analysis of the deposited data

Results flagged for a closer look

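In 78 groups of libraries tested (each serotonin gene, ratio and other gene named, in each genotype), 4 held a library far from the others, where chance gives about 3.9. WT replicate 2 was the library apart in 2 of them. On the scale of log2(normalized count + 1), its Tac1 was 7.44 where the next WT library had 6.21, and its Nts was 8.22 where the next had 9.88. In the group labelled Chd8L+/-, replicate 7 stood apart from the other 6 with 9.22 for Gchfr, where the next had 8.46, and with 12.29 for Aldh1b1, where the next had 13.06.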

How the results depend on the processing

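Of the serotonin genes, Slc18a1, Slc6a4, Maoa, Maob and Tac1 kept their direction in all 35 alternatives. The number of serotonin genes called went from 0 to 1 (Slc18a1) with DESeq2 and with the library letter as a block, and ranged from 0 to 2 with 1 library left out. The number of all genes called was 3 with limma, 5 with edgeR, 811 with DESeq2, 0 with the replicate block, 451 with the letter block, 0 with the exact test of each gene and 0 without Chd8L+/- replicates 4 and 5, and it ranged from 0 to 4112 with 1 library left out, the highest without WT replicate 2. The cause was not tested. The replicate number as a block called 0 serotonin genes and gave the ratios of Tph1 to Chga, Tac1 to Tph1 and Maoa to Maob as -0.13, 1.01 and -0.13 (exact permutation within pairs, p = 0.750, 0.1875 and 0.375, where the smallest possible is 0.0625); libraries with the same number had correlations of deviations of 0.19, -0.34, -0.13, -0.17 and -0.23, so the numbers do not pair them, and replicate 1 alone was closest to its own number. Some directions turned. Tph1 had -0.037 with quantile normalization, -0.16 with the letter block and -0.086 to 0.25 with 1 library left out. Ddc had 0.13, 0.027 and 0.018 with quantile normalization, edgeR and DESeq2, 0.098 without Chd8L+/- replicates 4 and 5, and -0.13 to 0.12 with 1 library left out. The ratio of Tph1 to Chga ran from -0.13 to 0.071 with 1 library left out. In the same way Chga ran from -0.13 to 0.29, Chgb from -0.15 to 0.21, Sult1a1 from -0.21 to 1.76 (-0.31 without Chd8L+/- replicates 4 and 5) and Foxa1 from -0.055 to 0.25 (-0.080 without Chd8L+/- replicates 4 and 5). Reads were fewest for Tac1, Tph1 and Slc18a1, with counting errors of at most 13.9%, 10.2% and 9.09% of the value. In each of these genes that was less than the spread between mice.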
